A study of Mus musculus with 8 samples.

Results

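Of 10 mouse genes linked to germ cell fate, 9 had at least 1 probe on the arrays and were followed through RNA immunoprecipitation (RIP) from Dazl-GFP embryonic stem (ES) cells. The 10 genes were chosen by name, with earlier results of these data known: Dazl, Kit, Prdm1, Prdm14, Dppa3, Ddx4, Nanos3, Dnd1, Tex19.1 and Tex19.2. All of their probes were taken, out of 27677 gene names on the array. Dazl had 2 probes and each of the other 8 genes had 1, which gave 10 probes. Tex19.1 was found under its older name Tex19, and Tex19.2 under 4921530G04Rik. No probe matched Prdm14, which is not analysed here.

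Dazl encodes an RNA-binding protein of germ cells that attaches to the 3′ untranslated regions of mRNAs and can recruit poly(A)-binding protein to them. Primordial germ cells arise from the epiblast after BMP and WNT signals switch on the transcriptional regulators PRDM1 (BLIMP1) and PRDM14. The receptor KIT and the RNA-binding proteins NANOS3 and DND1 keep these cells alive as they migrate, and DAZL and DDX4 come on when they settle in the gonad. Several germline genes, Dazl and Tex19.1 among them, are held silent in other tissues by promoter DNA methylation and are read in ES cells that have little of it.

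The arrays measured RNA from 1 re-derived transgenic ES line, grown over γ-irradiated feeder fibroblasts in serum-containing medium. All groups shared leukaemia inhibitory factor and the inhibitor pair called 2i, PD0325901 against the kinase MEK and CHIR99021 against GSK3β. The 3 groups differed in the antibody: 3 arrays of input RNA without antibody, 2 arrays of RNA from a native (uncrosslinked) anti-PABP1 immunoprecipitation (PABP1 IP), and 3 arrays from an anti-GFP immunoprecipitation (GFP IP). The study asked which RNA species DAZL binds. The sources used here do not state whether GFP is fused to DAZL or reports Dazl promoter activity in this line, or whether the transgene's RNA carries Dazl sequence, so the Dazl probes may read RNA of either origin. An immunoprecipitation with a control antibody is not analysed here. Separate cultures behind the arrays of a group are not stated in the labels; the p-values then measure no more than the spread among these arrays, and that spread may be technical.

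On the 8 arrays 41.5% to 52.6% of 43379 probe spots were well above background, which is the scanner software's own flag, and 20624 probes passed the filter and were tested. Correlations of log2 signal across probes, which are not independent replicates, were 0.973 to 0.992 within groups and 0.843 to 0.921 between them. The ES cell label held: all 11 ES markers on the array were well above background on all 8 arrays, with summed levels of 714 to 731 in input, 759 to 778 in the PABP1 IPs and 805 to 910 in the GFP IPs, each in multiples of the array's 75th-percentile signal. Feeder RNA was present too. The summed level of 22 fibroblast markers was 323 to 424 in input, 507 to 536 in the PABP1 IPs and 146 to 207 in the GFP IPs, and Pdgfra was not well above background on any array. Of 10 primitive endoderm markers 3 were well above background on all 8 arrays, and Sox7 and Afp on none. From 3 to 6 of the 10 were so on the input arrays, 7 on each PABP1 IP and 5 to 7 on the GFP IPs. The summed level of the 10 stayed between 1.68 and 3.51 throughout. The arrays lay on 2 slides, each with arrays of all 3 groups. Slide 1 held input replicates 1 and 2, PABP1 IP replicate 1 and GFP IP replicate 2, and slide 2 held the others. Every within-slide comparison therefore has a single array in some group. Within-slide values of the called germ cell fate probes are given beside the results as sizes only.

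A signal is given below as a multiple of the array's 75th-percentile signal over all probe spots, so it is a share of one RNA sample and not an amount per cell. In such bulk RNA, fewer cells of a type and less RNA per cell cannot be told apart. A difference is one of mean log2 signal, ± limma's standard error, with a p adjusted by Benjamini-Hochberg over all 20624 tested probes. A probe is called higher or lower where that p is below 0.05. The levels of different probes are not compared, because each probe has its own brightness.

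Probe sequences were not used here, and the sequences shown are promoters. RefSeq windows of 300 bases (250 before to 50 after the start site) on GRCm38.p6 were matched for 7 of the 10 genes. The last 100 bases before the start site are printed for 4 of them. Of these mRNAs 3 were higher in the GFP IP and the other, Nanos3, moved the opposite way. Kit and Prdm1, also higher in the GFP IP, are not printed, and their CG counts are given below. Capitals mark the dinucleotide CG, which reads the same on both strands and is the substrate of promoter methylation. The Dazl stretch is chr17:50293621-50293720 (minus strand), that of Tex19.1 is chr11:121146043-121146142 (plus strand), that of Tex19.2 is chr11:121118678-121118777 (minus strand) and that of Nanos3 is chr8:84176553-84176652 (minus strand).
Dazl: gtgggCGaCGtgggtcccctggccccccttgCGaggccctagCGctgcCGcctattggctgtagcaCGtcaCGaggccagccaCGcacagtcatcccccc
Tex19.1: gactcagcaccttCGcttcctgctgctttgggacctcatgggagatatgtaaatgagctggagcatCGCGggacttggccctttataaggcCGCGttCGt
Tex19.2: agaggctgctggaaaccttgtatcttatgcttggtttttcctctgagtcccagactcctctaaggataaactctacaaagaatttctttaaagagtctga
Nanos3: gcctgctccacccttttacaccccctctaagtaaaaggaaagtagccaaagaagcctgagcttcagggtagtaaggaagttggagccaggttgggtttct

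The whole Dazl window held 28 CG, more than 85.8% of all 32851 windows, whose median was 7, and 94.6% of which held at least 1. The windows of Tex19.1, Nanos3 and Tex19.2 held 16, 3 and 2 CG, more than 67%, 23.3% and 14.1% of windows. Those of Kit held 20 and 21 CG and that of Prdm1 held 20, more than 73.5%, 75.2% and 73.5% of windows. Tex19.1 and Tex19.2 are neighbours in the RefSeq annotation of chromosome 11. Thus, of these mRNAs high in the GFP IP, that of Tex19.2 had a CG-poor promoter. The windows of Dazl, Tex19.1, Kit and Prdm1 held more CG than the median window. The promoters are given as a description, and methylation was not measured here.

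The GFP IP was compared with input to ask which mRNAs the GFP antibody recovered. Of the germ cell fate mRNAs, 7 genes were higher in the GFP IP, among them Dazl, Tex19.1, Kit, Tex19.2 and Prdm1 at 4.13-fold or more, and 1, Nanos3, was lower. By probe, 8 of the 9 tested were higher and 1 lower, while 24.2% of all tested probes were higher and 39.1% lower. One of these, the second Dazl probe, was tested only because it was bright in the GFP IP. Among the 7 probes that were well above background on all 8 arrays, all 7 were higher, with a median difference of 2.51. This filter left out Nanos3, the lower probe, because its signal on GFP IP replicate 3 was not well above background. The absence of a lower probe among the 7 was therefore set in part by the filter. The median of all 15105 probes passing that same filter was −0.39, with 3814 of them higher and 6975 lower. The probes differed widely among themselves, from −1.34 for Nanos3 to 3.81 for Dazl.

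**Figure D1:**
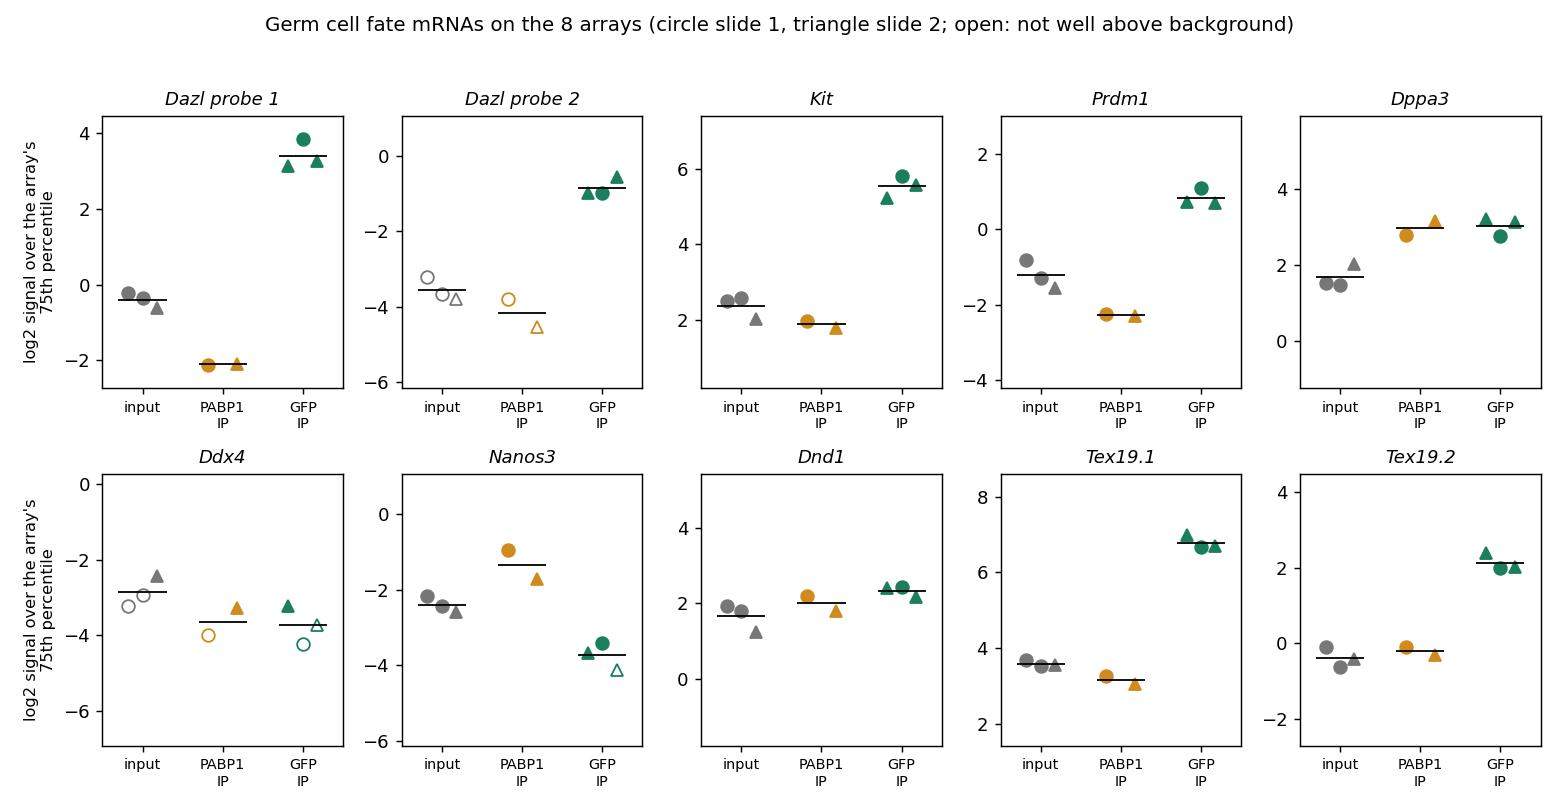
Log2 multiple of the 75th-percentile signal (y axis) for each probe on every array, by group; circles are arrays of slide 1, triangles of slide 2, open symbols are not well above background and lines are group means. Each panel spans the same range of log2 units. Dazl, Kit, Prdm1, Tex19.1 and Tex19.2 sit highest on the 3 GFP IPs, Nanos3 sits lowest there, and Dppa3 is alike on both kinds of IP.

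Dazl itself was at 0.851, 0.777 and 0.655 on the input arrays by its brighter probe, at 0.230 and 0.235 on the PABP1 IPs, and at 8.73, 14.4 and 9.62 on the GFP IPs. The 3 groups did not overlap. The GFP IP was 14.1-fold over input (log2 3.81 ± 0.21, limma adjusted p = 2.07e-05), rank 29 of 20624 probes, and 4.19 above the median probe. Within slide 1 the difference was 4.14 and within slide 2 it was 3.81. The dimmer Dazl probe was at 0.505, 0.499 and 0.676 on the GFP IPs and not well above background on the other 5 arrays. It gives only a bound: the GFP IP was at least 5.59-fold over input under the reported background correction. The bound is the mean of the bright group over the lowest signal called above background on each dim array. Where the dim probe's own signal was higher, that signal was used. For the dimmer probe the limma adjusted p of its measured difference (log2 2.71) was 0.000121, which does not test the bound. Within slides 1 and 2 its measured difference was 2.44 and 3.03. With normexp background correction the call of this probe was lost, at a measured difference of 0.63 (limma adjusted p = 0.182), below that bound.

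Tex19.1 belongs to a mammal-specific gene family that acts in germ cells and placenta and holds retrotransposons in check. Its probe was at 12.8, 11.4 and 11.7 in input, 9.51 and 8.29 in the PABP1 IPs and 126, 102 and 104 in the GFP IPs. All GFP IPs lay far above the rest, with a 9.22-fold difference over input (log2 3.21 ± 0.13, limma adjusted p = 1.38e-05). Tex19.2, its neighbour and paralogue, read 0.931, 0.654 and 0.759 in input, 0.939 and 0.815 in the PABP1 IPs, and 5.28, 3.98 and 4.07 in the GFP IPs. Its GFP IPs were also apart from all other arrays, at 5.70-fold over input (log2 2.51 ± 0.18, limma adjusted p = 4.9e-05). Within slides 1 and 2 the differences were 3.08 and 3.29 for Tex19.1, and 2.35 and 2.61 for Tex19.2. How far the probes of these similar genes also bind the partner's mRNA was not tested, since no probe sequence was used here.

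Kit encodes the receptor for stem cell factor, on which primordial germ cells depend for survival and migration. Its mRNA was at 5.66, 5.99 and 4.06 in input, at 3.93 and 3.46 in the PABP1 IPs and at 37.4, 55.7 and 47.7 in the GFP IPs. The GFP IPs did not overlap with the others and were 8.97-fold over input (log2 3.17 ± 0.21, limma adjusted p = 3.58e-05), with 3.26 within slide 1 and 3.38 within slide 2. The Kit probe was printed as 10 spots on each array, which gives a measure of spot error: within an array the spots had an SD of 0.058 to 0.078 log2, and the 10 GFP IP differences ran from 3.13 to 3.21. Array-to-array SDs of 0.30 in input and 0.29 in the GFP IPs were therefore several times the spot error. Kitl, which encodes the KIT ligand, was not well above background on any array.

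Prdm1 encodes the repressor BLIMP1 that sets apart primordial germ cells. It was at 0.571, 0.411 and 0.343 in input, 0.210 and 0.204 in the PABP1 IPs and 1.66, 2.12 and 1.61 in the GFP IPs. The groups were separate, and the GFP IP was 4.13-fold over input (log2 2.05 ± 0.21, limma adjusted p = 0.000178). Dppa3, whose product STELLA shields methylated DNA from demethylation in the early embryo, was at 2.89, 2.80 and 4.07 in input, 6.89 and 9.04 in the PABP1 IPs and 9.24, 6.81 and 8.85 in the GFP IPs. Both kinds of IP lay above all inputs, with 2.57-fold for the GFP IP (log2 1.36 ± 0.21, limma adjusted p = 0.00113). Within slides 1 and 2 Prdm1 stood at 2.13 and 2.25, and Dppa3 at 1.26 and 1.15. With normexp background correction neither call held: Prdm1 stood at 0.97 (adjusted p = 0.0524) and Dppa3 at 1.07 (adjusted p = 0.122) in limma.

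Dnd1 and Nanos3 encode RNA-binding proteins that germ cells need to survive, and they went opposite ways. Dnd1 was at 3.84, 3.46 and 2.36 in input, 4.61 and 3.48 in the PABP1 IPs and 5.25, 5.36 and 4.45 in the GFP IPs. Its GFP IPs lay above the inputs by a small margin, 1.59-fold (log2 0.67 ± 0.22, limma adjusted p = 0.0297), and the call was lost in 7 of 20 alternatives, such as without input replicate 2 (adjusted p = 0.0507), input replicate 3 (0.0586), GFP IP replicate 1 (0.082) or GFP IP replicate 2 (0.0756). Within slide 1 Dnd1 was at 0.56 and within slide 2 at 1.03. Nanos3 was at 0.223, 0.186 and 0.166 in input, 0.521 and 0.301 in the PABP1 IPs, and 0.0785, 0.0933 and 0.0577 in the GFP IPs, on the last of which it was not well above background. It was lower in the GFP IP than in input by 2.53-fold (log2 −1.34 ± 0.27, limma adjusted p = 0.00359). Within slides 1 and 2 it was at −1.13 and −1.30. These are dim signals, and with normexp the difference shrank to −0.25 (adjusted p = 0.84).

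Ddx4 encodes the RNA helicase VASA, a late germ cell marker. Its probe was well above background on 3 of 8 arrays, 1 of each group and all on slide 2, at 0.186 in input, 0.102 in the PABP1 IP and 0.106 in the GFP IP. It did not pass the filter on dim probes and was not tested.

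**Figure D2:**
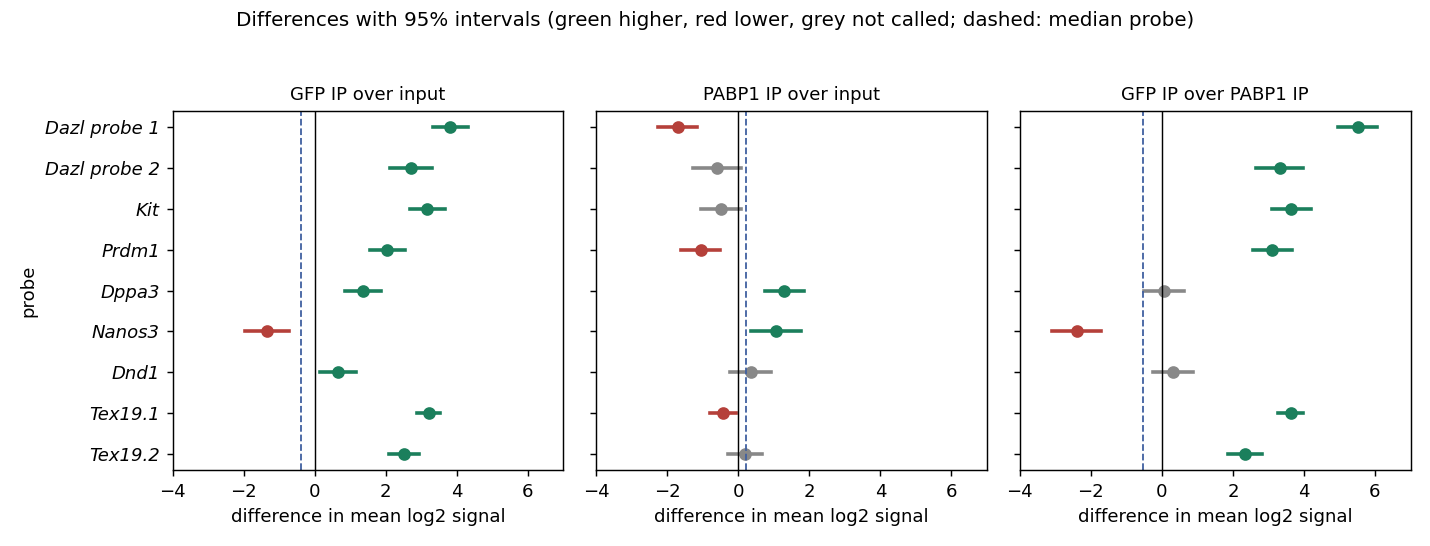
Difference in mean log2 signal (x axis) with its 95% interval for each tested probe (y axis) in the 3 comparisons; the dashed line is the median of all tested probes and the solid line is 0. In the GFP IP over input 8 probes lie above 0 and Nanos3 below. The points of the dimmer Dazl probe are measured differences. Its bounds for the GFP IP lie below them, at log2 2.48 over input and 3.17 over the PABP1 IP.

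The PABP1 IP was compared with input as a reference for poly(A) mRNA recovered with a general mRNA-binding protein. Here 2 of the 9 tested probes were higher, 3 lower and 4 not called, while 34.5% of all tested probes were higher and 25.9% lower. Of the 7 probes well above background on all 8 arrays 1 was higher and 3 lower, against 5869 higher and 4461 lower of all 15105 such probes. Nanos3, called higher here, is not among the 7, because its signal was too low on GFP IP replicate 3. With the percentile over detected probes 2 of the 9 were higher and 5 lower, against 5912 higher and 6513 lower of all 20624 probes. The 5 include the dimmer Dazl probe, which was well above background in neither group and was tested only through the GFP IP. The share of higher probes among all called went from 57.1% to 47.6%. Dppa3 was 2.46-fold higher (log2 1.30 ± 0.23, limma adjusted p = 0.00236) and Nanos3 2.08-fold higher (log2 1.06 ± 0.30, limma adjusted p = 0.017). Dazl fell by 1.70 on the log2 scale (± 0.23, limma adjusted p = 0.000616) by its brighter probe, Prdm1 by 1.06 (± 0.24, adjusted p = 0.00618) and Tex19.1 by 0.43 (± 0.15, adjusted p = 0.0411). Within slides 1 and 2 Dazl was at −1.82 and −1.48, Prdm1 at −1.21 and −0.75, Dppa3 at 1.27 and 1.15, Nanos3 at 1.36 and 0.86, and Tex19.1 at −0.34 and −0.50. With normexp none of the 5 calls held: Dazl stood at −0.83 (adjusted p = 0.307), Prdm1 at −0.47 (adjusted p = 0.359), Tex19.1 at −0.13 (adjusted p = 0.9) and Dppa3 at 1.35 (adjusted p = 0.0718) in limma, and Nanos3 follows below. The Tex19.1 call was lost in 13 of 20 alternatives, such as without input replicate 1 (−0.38, limma adjusted p = 0.0981). Its difference was −0.53 without PABP1 IP replicate 1 and −0.33 without PABP1 IP replicate 2, with a single PABP1 IP array left.

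Kit was at −0.48 ± 0.23 in the PABP1 IP (limma adjusted p = 0.113, 95% interval −1.04 to 0.07) and Dnd1 at 0.35 ± 0.24 (adjusted p = 0.255, interval −0.22 to 0.91). Kit was called without input replicate 3 (−0.66, adjusted p = 0.0362) and when arrays were scaled on detected probes (−0.72, adjusted p = 0.0274). With slide as a block both were called, Kit at −0.42 (limma adjusted p = 0.0331) and Dnd1 at 0.41 (adjusted p = 0.0437). Tex19.2 was at 0.18 ± 0.20 (limma adjusted p = 0.48, interval −0.30 to 0.66). The dimmer Dazl probe was not well above background in either group, so it has no fold here. The higher call of Nanos3 was lost in 3 of 19 alternatives, normexp among them (0.02, limma adjusted p = 0.981). Nanos3 was at 0.66 without PABP1 IP replicate 1 and at 0.86 within slide 2, each with a single PABP1 IP array.

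**Figure D3:**
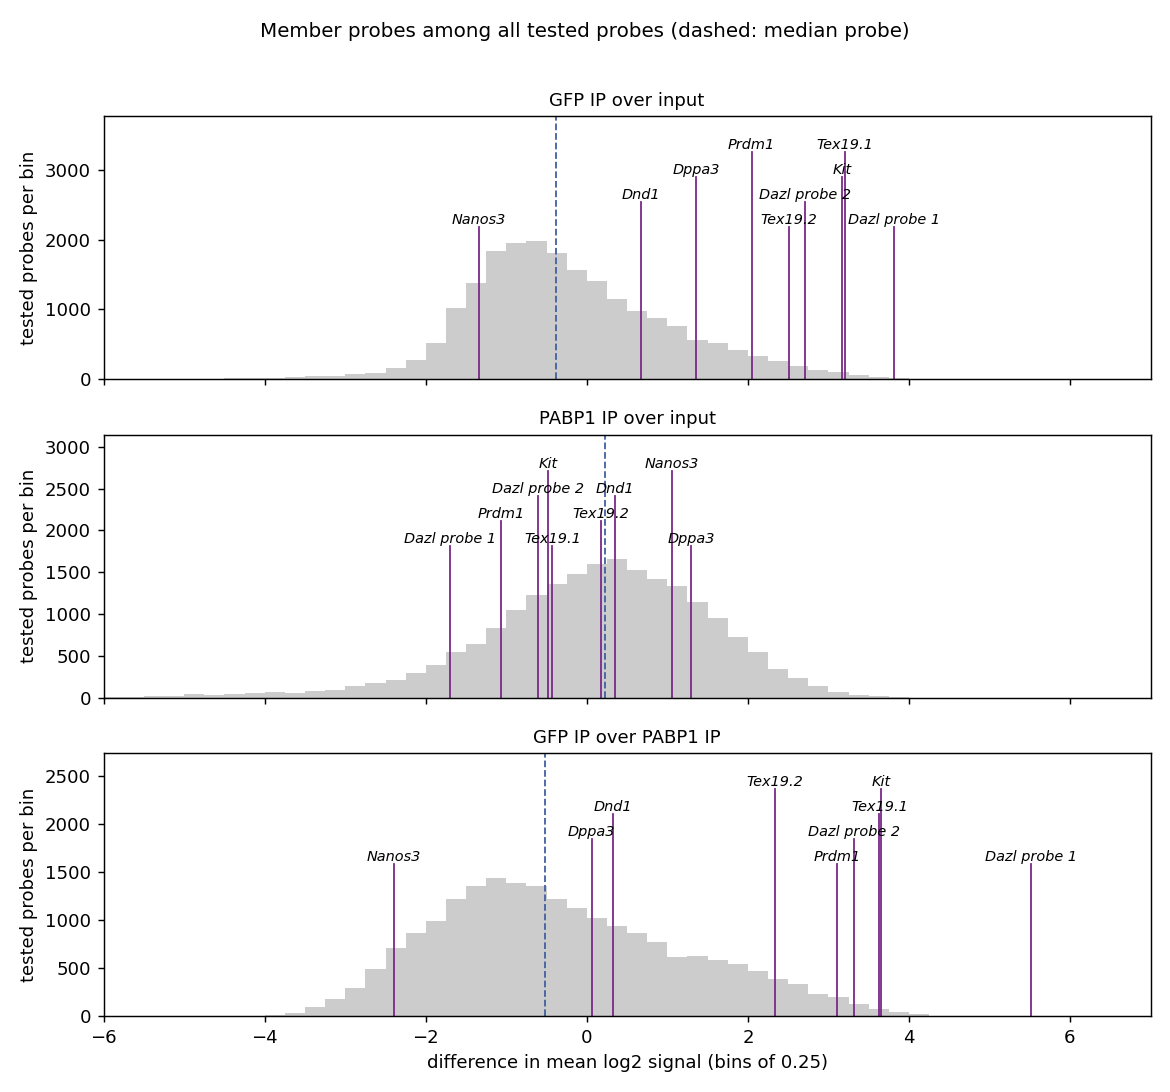
Number of tested probes (y axis) by difference in mean log2 signal (x axis, bins of 0.25) in each comparison, with the germ cell fate probes as vertical lines and the median probe dashed. The GFP IP over input places Dazl by its brighter probe, Tex19.1 and Kit in the upper tail, where 1.15% of probes exceed 3. In the PABP1 IP over input the same mRNAs lie below the median probe.

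The direct comparison of both IPs asked which mRNAs the GFP antibody recovered more than the PABP1 antibody. Of the 9 tested probes 6 were higher in the GFP IP, 1 was lower and 2 were not called, against 26.6% higher and 43.7% lower of all tested probes. The dimmer Dazl probe, among the 6, was tested only through the GFP IP. Of the 7 probes well above background on all 8 arrays 5 were higher and 0 lower. That filter removed Nanos3, the lower probe, through its low signal on GFP IP replicate 3, so the 0 was set by the filter. Of all 15105 probes passing that filter 4105 were higher and 7300 lower. Dazl by its brighter probe ranked 1 of 20624, at 45.7-fold (log2 5.52 ± 0.23, limma adjusted p = 1.14e-05), with 5.96 within slide 1 and 5.29 within slide 2. The dimmer probe bounds the difference at 8.97-fold or more under the reported background correction. The limma adjusted p of its measured difference (log2 3.31) was 5.38e-05 and does not test that bound. With normexp the dimmer probe was at 1.00 (limma adjusted p = 0.0402), below the bound. Kit was 12.6-fold higher (log2 3.65 ± 0.23, limma adjusted p = 1.84e-05), Tex19.1 12.4-fold (3.63 ± 0.15, adjusted p = 1.14e-05), Prdm1 8.62-fold (3.11 ± 0.24, adjusted p = 3.23e-05) and Tex19.2 5.04-fold (2.33 ± 0.20, adjusted p = 5.89e-05). Within slides 1 and 2 Kit was at 3.82 and 3.61, Tex19.1 at 3.42 and 3.79, and Tex19.2 at 2.08 and 2.51. The dimmer Dazl probe was at 2.79 and 3.76 there, and Prdm1 at 3.34 and 3.00.

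Nanos3 was lower in the GFP IP than in the PABP1 IP, by 2.40 on the log2 scale (−2.40 ± 0.30, limma adjusted p = 0.000294), with −2.48 within slide 1 and −2.16 within slide 2. With normexp it was at −0.27 (limma adjusted p = 0.777), so the call was lost. Dppa3 was at 0.06 ± 0.23 (limma adjusted p = 0.825), with a 95% interval of −0.49 to 0.61, and Dnd1 at 0.32 ± 0.24 (adjusted p = 0.261, interval −0.25 to 0.89). Thus a difference of Dppa3 between the IPs above 1.53-fold lies outside its interval under the reported scaling. Scaled to array medians Dppa3 was at 0.52 (limma adjusted p = 0.245), so this limit depends on the scaling. Dnd1 was called higher under 4 alternatives: scaling to the median, quantile normalization, the 75th percentile over detected probes, and slide as a block (limma adjusted p = 0.0112 to 0.0485).

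Across the 3 groups the order of levels took several forms. Dazl and Prdm1 ran from the GFP IP through input to the PABP1 IP, each step called. Tex19.1 had the same order, with a last step lost in 13 of 20 alternatives, and Kit had it with a last step that was not called. Tex19.2 was highest in the GFP IP, and its other neighbours in the order did not differ beyond their spread. Dppa3 was lowest in input, with the IPs not told apart. Nanos3 ran from the PABP1 IP through input to the GFP IP. The comparisons over input share the input arrays, so their values are set side by side and not as independent results.

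These differences depend on how arrays are scaled, because the median probe is not at 0. The median of all tested probes was −0.38 in the GFP IP over input, −0.52 between the IPs and 0.22 in the PABP1 IP over input. Scaled to array medians these became 0.16, −0.06 and 0.30, and the share of higher probes among all called ones in the GFP IP over input went from 38.2% to 64.3%; between the IPs it went from 37.8% to 52%, or to 51% with the percentile over detected probes. The germ cell fate probes kept their directions over input in the GFP IP under every scaling run. Relative to the median probe of each alternative, Dazl stayed between 2.99 and 4.59 over input, Tex19.1 between 3.17 and 3.98, Kit between 3.02 and 3.94, and Nanos3 between −1.10 and −0.08.

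**Figure D4:**
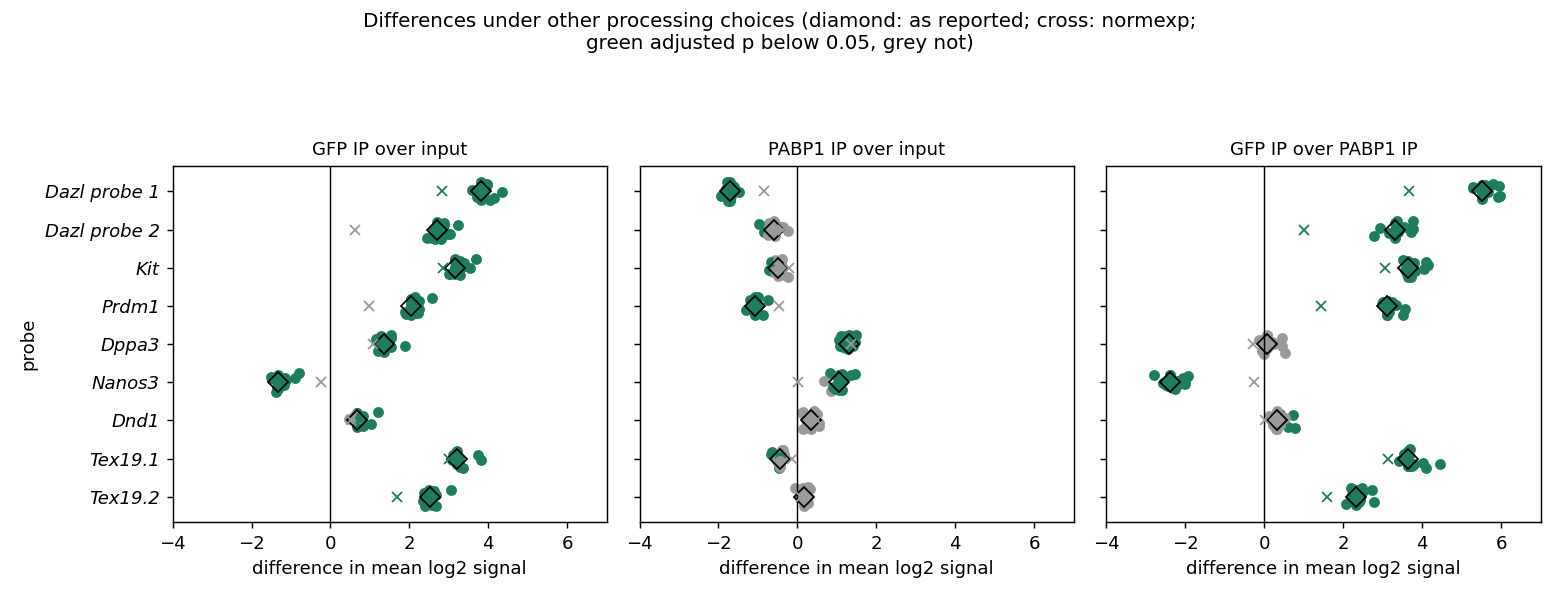
Difference in mean log2 signal (x axis) of each tested probe (y axis) under the reported setting (diamond) and the alternatives (points; cross for normexp background), green where limma's adjusted p is below 0.05 and grey where not. In the GFP IP over input the normexp values of the brighter Dazl probe (2.83) and of Tex19.1 (3.00) are the lowest of their alternatives, and both are called.

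The authors' deposited table of group mean intensities, with a scaling that the sources used here do not state, gives ratios for the same probes. In the authors' deposited table the GFP IP over input was 21.2-fold and 8.54-fold for the Dazl probes, the latter for the dimmer probe without signal well above background in input, 12.2-fold to 12.9-fold over 10 Kit entries, 13.8-fold for Tex19.1, 8.82-fold for Tex19.2 and 6.03-fold for Prdm1. Nanos3 stood at 0.649 and Dnd1 at 2.44 in the authors' deposited table.

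The mRNAs most like Dazl were sought over the 8 arrays, among 12695 genes with a probe well above background on all 3 GFP IPs, by Euclidean distance between log2 profiles after each probe's mean was subtracted. The nearest were Lnpep (1.06), an aminopeptidase gene, AK047739 (1.52), Rest (1.75), the gene of a transcriptional repressor of neuronal genes, Acer3 (1.80), a ceramidase gene, and Dcaf12l1 (1.81). Lnpep was well above background on 5 of 8 arrays, AK047739 on 7 and Acer3 on 3, so the distance of Acer3 rests on background signal on the other 5. The filter used the group in which Dazl is high, and it left out Nanos3 and Ddx4. Among the germ cell fate genes Kit came at place 15 (distance 2.08), Tex19.1 at 17 (2.21), Prdm1 at 119 (2.88), Tex19.2 at 464, Dnd1 at 3611 and Dppa3 at 3991.

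Other germ cell genes were taken from 4 lists, each gene by its brightest probe, to set beside the named genes. Well above background on all 8 arrays were 17 of 20 specification, 11 of 15 RNA-binding, 7 of 12 survival and 9 of 23 methylation-silenced genes on the array. Further tested genes may have passed the filter only through the group where they are high. The counts below do not set such genes apart. Over genes, 21% of those tested were higher and 43.2% lower in the GFP IP over input, 23.5% and 47.5% between the IPs, and 34.2% and 25.2% in the PABP1 IP over input. Of 18 tested specification genes 11 were higher in the GFP IP than in input and 4 lower, with a median of 0.95 against −0.52 for all tested genes. Sall4 (log2 2.13 ± 0.23), a zinc-finger factor, and the BMP receptor gene Acvr1 (1.95 ± 0.14) were the highest called, and the interferon-induced genes Ifitm1 (−1.42 ± 0.15) and Ifitm3 (−1.15 ± 0.12), which mark nascent germ cells, the lowest (limma adjusted p at most 0.000206). Another Sall4 probe was not called (0.08 ± 0.44), so its value depends on the probe.

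Of 14 RNA-binding protein and DAZL partner genes 7 were higher in the GFP IP and 3 lower, with a median of 0.43. Elavl2 (2.20 ± 0.12) and Cpeb1 (1.60 ± 0.24), which encode mRNA-binding regulators, led, and Igf2bp1 (−0.78 ± 0.12) and Dzip1 (−1.32 ± 0.20) were lowest (limma adjusted p at most 0.00103); a further Dzip1 probe was not called (0.07 ± 0.11). Of 10 survival and migration genes 4 were higher and 1 lower, with a median of 0.38. Of this list 10 genes were well above background on each GFP IP, against 7 to 9 on the input arrays. Cxcr4 (2.36 ± 0.29), the receptor gene for the chemokine that guides migrating germ cells, and Bmi1 (1.57 ± 0.48) were highest and the pro-death gene Bax (−0.39 ± 0.14, adjusted p = 0.0453) was lower.

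Germline genes that promoter methylation silences formed the last list, of which 12 of 24 were tested, 8 being well above background on no array. In the GFP IP 5 were higher and 3 lower than in input, with a median of −0.46 near that of all genes. Dmrt1 (3.75 ± 0.28, limma adjusted p = 5.22e-05), a transcription factor gene of germ and Sertoli cells, and Sohlh2 (2.13 ± 0.32) were highest, while Rhox6 (−1.69 ± 0.20) and Rhox9 (−0.98 ± 0.24) were lowest.

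**Figure D5:**
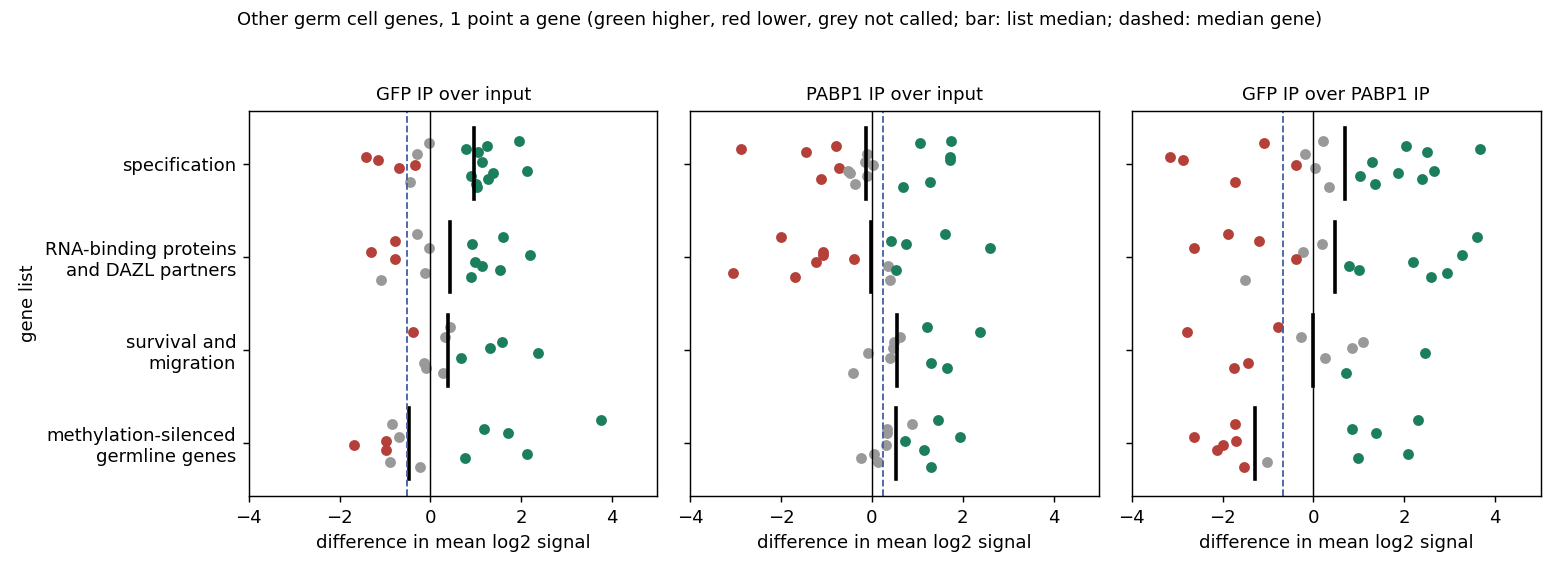
Difference in mean log2 signal (x axis) of each tested gene, by its brightest probe, in 4 lists of germ cell genes (y axis) and 3 comparisons; bars are list medians, the dashed line the median gene. Specification genes have a median of 0.95 in the GFP IP over input, whereas methylation-silenced germline genes stand at −0.46, near the median gene.

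In the PABP1 IP over input the specification list had 6 genes higher and 5 lower of 18, with Acvr1 (1.73 ± 0.15) and Ifitm3 (1.73 ± 0.13) highest and Bmpr2 (−2.89 ± 0.29) and Cbfa2t2 (−1.45 ± 0.12) lowest. Of the other probes of Bmpr2, 1 was at −1.24 and 1 at −0.42, neither called, and another Cbfa2t2 probe was higher (0.42), so these differ by probe. The RNA-binding list had 5 higher and 7 lower of 14: Dynll1 (2.61 ± 0.13), a dynein light chain, and Boll (1.60 ± 0.26), a paralogue of Dazl, were highest, and Pum2 (−3.06 ± 0.36) and Cpeb1 (limma adjusted p = 0.000537) lowest. Other Pum2 probes read 0.17, not called, and −0.99. Survival genes numbered 4 higher and 0 lower of 10, with Bax (2.39 ± 0.16) highest, and methylation-silenced genes 5 higher and 0 lower of 12, with Mael (1.94 ± 0.42) and Dmrt1 (1.46 ± 0.31) highest.

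Between the IPs 9 specification genes were higher in the GFP IP and 5 lower, led by Bmpr2 (3.67 ± 0.29) and Sall4 (2.65 ± 0.25), with Ifitm3 (−2.87 ± 0.13) and Ifitm1 (−3.15 ± 0.17) lowest; other Bmpr2 probes were at 2.91 and 0.13 (not called), and the other Sall4 probe at −0.52 (not called). Of the RNA-binding list 7 were higher and 4 lower, with Cpeb1 (3.59 ± 0.27) and Elavl2 (3.27 ± 0.13) highest and Dynll1 (−2.63 ± 0.13) and Boll (−1.89 ± 0.26) lowest. Survival genes gave 2 higher and 4 lower, with Cxcr4 (2.45 ± 0.32) highest and Bax (−2.78 ± 0.16) lowest. Methylation-silenced genes gave 5 higher and 6 lower, with Dmrt1 (2.29 ± 0.31) and Sohlh2 (2.09 ± 0.35) against Mael (−2.63 ± 0.42) and Rhox9 (−2.12 ± 0.27).

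Marker lists of other cells were counted in the same comparisons. Of 21 tested feeder fibroblast markers 1 was higher and 15 lower in the GFP IP than in input, 10 higher and 3 lower in the PABP1 IP, and 3 higher and 17 lower between the IPs; of 11 ES markers 5 were higher and 1 lower in the GFP IP, 5 higher and 3 lower in the PABP1 IP, and 6 higher and 3 lower between the IPs. Primitive endoderm markers gave 1 higher, 1 lower and 5 not called of 7 in the GFP IP, with a median 0.08 above that of all genes, and primed pluripotency markers 3 higher and 1 lower of 4. Their part in the differences of the germ cell fate genes was not tested.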

How the data were processed

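Cy3-labelled RNA of 8 samples was read on 1-colour Agilent arrays of design 014868. Spot intensity came from the authors' run of Feature Extraction 9.1.3.1 with protocol GE1-v5_95_Feb07, per the file headers, and flags for background, saturation and outliers, other values than brightness, were deposited beside them. From the authors' deposited series table only the mean intensity of each group was read, and 3 other columns of it were left aside.

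From the log2 of the processed intensity the array's own 75th percentile was taken away, repeat spots were averaged per probe, and 30 probes with outlier spots were left out. A probe was tested if 1 or more groups had it well above background on each of their arrays. The fit used limma 3.58.1 (R 4.3.3; lmFit, then eBayes) on 8 arrays, with 5 residual degrees of freedom and 2.17 prior ones, two-sided, adjusted by Benjamini-Hochberg over 20624 probes, threshold 0.05. The script was tested on simulated data. Accessions were named through RefSeq (GRCm38.p6), and files were read with the data.table package (version 1.17.8). Figures used matplotlib 3.10.9 in Python 3.11.15. The members and lists were chosen with earlier results of these data known. Named list genes are, per list and comparison, the 2 highest and 2 lowest called; a few of these are not reported here.

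Arrays of the same slide deviated together from their group means (correlations of 0.417 to 0.74 in 10 pairs). Alternatives covered scaling, background correction, filters, slide, replicate number, probe choice and leaving out each array.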

Additional observations from a re-analysis of the deposited data

How the results depend on the processing

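For 27 differences of the 9 tested probes, 531 alternative values were computed: 483 kept direction and side of the threshold, 31 lost the call, 10 gained it, and 7, all of differences that were not called, changed sign (Dppa3 between the IPs, −0.28 to 0.52, and Tex19.2 in the PABP1 IP, −0.06 to 0.31). No called difference changed sign. With normexp, 11 calls were lost; called probes fell to 2002 (GFP IP over input), 3303 (PABP1 IP over input) and 5463 (GFP IP over PABP1 IP), and called germ cell fate probes to 4, 0 and 6 in that order. In the PABP1 IP over input, where 0 were called with normexp, 1 of the 9 had an unadjusted limma p under 0.05. The median residual SD was 0.46 with normexp against 0.246; the cause was not tested. Within a slide, or without a PABP1 IP array, a group keeps a single array, so calls there rest on the spread of the groups with more arrays. Leaving out arrays left 8 to 9, 4 to 5 and 7 called germ cell fate probes.

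Whether replicate numbers pair the samples could not be decided. Deviations of same-numbered arrays correlated above 0.1 in 3 of 7 pairs, and those of differently numbered arrays in 7 of 14. The sign followed the slide, with −0.74 to −0.242 for arrays of different slides. The replicate block gave 12929, 11981 and 13573 called probes against 13052, 12455 and 14489, and the same 9, 5 and 7 called germ cell fate probes in number; it changed no call of theirs. Precision is limited by 2 or 3 arrays a group and, for Nanos3, Ddx4 and the dimmer Dazl probe, by signal near background.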
